A study of Mus musculus with 6 samples.

Results

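The Wnt pathway genes described here are 44 genes chosen by name from the 55335 genes of the count table. They are Wnt ligands, the proteins that lipidate, carry and inactivate these ligands, the Frizzled receptors and their co-receptors, the secreted antagonists, the β-catenin destruction complex, the TCF/LEF transcription factors, feedback targets and planar polarity genes. The rule that names them uses no measured value, although the list was written with earlier results of these data known. All 44 were found in the table, and 37 of them passed the filter on low counts and were tested among 15881 genes.

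Wnt proteins are secreted lipid-modified ligands that act over short distances. In the canonical branch a Wnt bridges a Frizzled receptor and Lrp5 or Lrp6, the destruction complex of Axin and Apc is held back, and β-catenin accumulates and acts with TCF/LEF factors on target genes such as Axin2. Ror2, Ryk and the Vangl proteins serve branches that do not need β-catenin and that orient the cytoskeleton during cell movement. Fibroblasts both make Wnts and respond to them.

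Mouse embryonic fibroblasts of WT genotype, cultured as 1 line of MEFs, were seeded on transwell membranes with 3 μm pores, and the cells that had passed to the lower side within 15 h were collected (Confine). Parental cells that had not been through the membrane served as controls (Ctrl). The labels give both groups the same culture medium with fetal bovine serum and name no other agent or allele. The study's transwell method, written for wider pores, put serum below the membrane only, so a difference in serum may also separate the groups. Confine cells were thus both selected by the pore and exposed to the transwell, and these influences cannot be told apart in this design. Polyadenylated RNA was sequenced and counted per gene, in 3 deposited columns for each group. Confine replicates 1 and 2 carried identical columns over all 55335 genes and entered once, as Confine 1/2, beside Confine 3. The comparison therefore rested on 3 Ctrl and 2 Confine libraries. The labels do not say that replicates came from separate cultures, so p-values measure only the spread between these samples, which may be technical.

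The libraries held between 22287210 and 32537550 counts. The summed level of 12 fibroblast markers was 9085 to 10021 normalized CPM in Ctrl and 16359 to 17243 in Confine, where normalized CPM is the count scaled to a common library size with TMM factors. Of the 9 fibroblast markers tested, 7 were higher in Confine, while Thy1 and Lum never exceeded 2 counts and Dcn was at 0 in 2 Ctrl libraries. Summed markers of leukocytes were 7.23 to 8.39 CPM in Ctrl and 18.3 to 25.9 in Confine. Cd68 and Csf1r were higher and Lyz2 was lower. Ptprc was seen in 1 library with 2 counts, and 3 of 8 markers were at 0 throughout. The call of Csf1r (edgeR adjusted p = 0.0367) was lost with DESeq2 (adjusted p = 0.0567) and in edgeR with library size alone (0.0662). Endothelial markers summed to 0.595 to 1.36 CPM in Ctrl and 2.43 to 2.70 in Confine. Vwf alone was higher, with 7, 17 and 7 counts in Ctrl and 72 and 64 in Confine. It has no value where at least 10 counts are required in every library. Pecam1, Cdh5, Kdr and Tek had lower means in Confine. Skeletal muscle markers summed to 3.63 to 4.34 CPM in Ctrl and 9.05 to 12.8 in Confine. Des alone was higher, and Myod1, Myog and Myf5 never exceeded 1 count. Epithelial markers summed to 0.170 to 0.416 CPM in Ctrl and 0.169 to 0.675 in Confine, and neural markers to 16.0 to 21.4 and 13.4 to 14.3. The part of these marker levels in the Wnt pathway values was not tested.

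Confine cells differed from Ctrl cells at several steps of the pathway. Porcn, which attaches the lipid to newly made Wnts, was 5.02-fold higher in Confine. Among receptors, Fzd7, Lrp5 and Kremen1 rose between 2.75-fold and 3.80-fold, whereas Fzd5 and Fzd6 fell. The secreted antagonist Sfrp2 fell 7.11-fold while the antagonist Dkk2 rose 2.30-fold. Among TCF/LEF factors, Tcf7 and Tcf7l1 rose and Tcf7l2 fell, and the feedback genes Axin2 and Nkd2 rose. Each of these TCF/LEF and feedback genes, and Fzd6, failed the test in at least 1 fit that left out a library. Axin2 and Tcf7 passed the filter on low counts through their Confine libraries alone. The genes of β-catenin, Apc and Axin1 did not pass the test.

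In the quasi-likelihood fit of edgeR, with p-values adjusted by Benjamini-Hochberg over all tested genes, 15 of the 37 tested members (40.5%) had an adjusted p under 0.05, compared with 23.0% of all tested genes. Higher in Confine were 11 of the 37 members, against 12.8% of all tested genes, and lower were 4 of the 37, against 10.2%. An absolute log2 fold change above 1.5 in addition was met by 9 of the 37, 7 higher and 2 lower, where 8.00% of all tested genes met it. Both Confine libraries lay above or below all 3 Ctrl libraries in 22 members, or 59.5% of those tested, and in 49.5% of all tested genes. Tested members had a median log2 fold change of -0.06 and a median absolute value of 0.64, compared with -0.00 and 0.39 over all tested genes. These counts describe members that passed a filter on low counts, and 4 of the 15 called members (Wnt7b, Wnt9a, Axin2 and Tcf7) passed it through their Confine libraries alone. With at least 10 counts required in every library, 31 members were tested and 12 were called, where 23.7% of all tested genes were called.

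**Figure D1:**
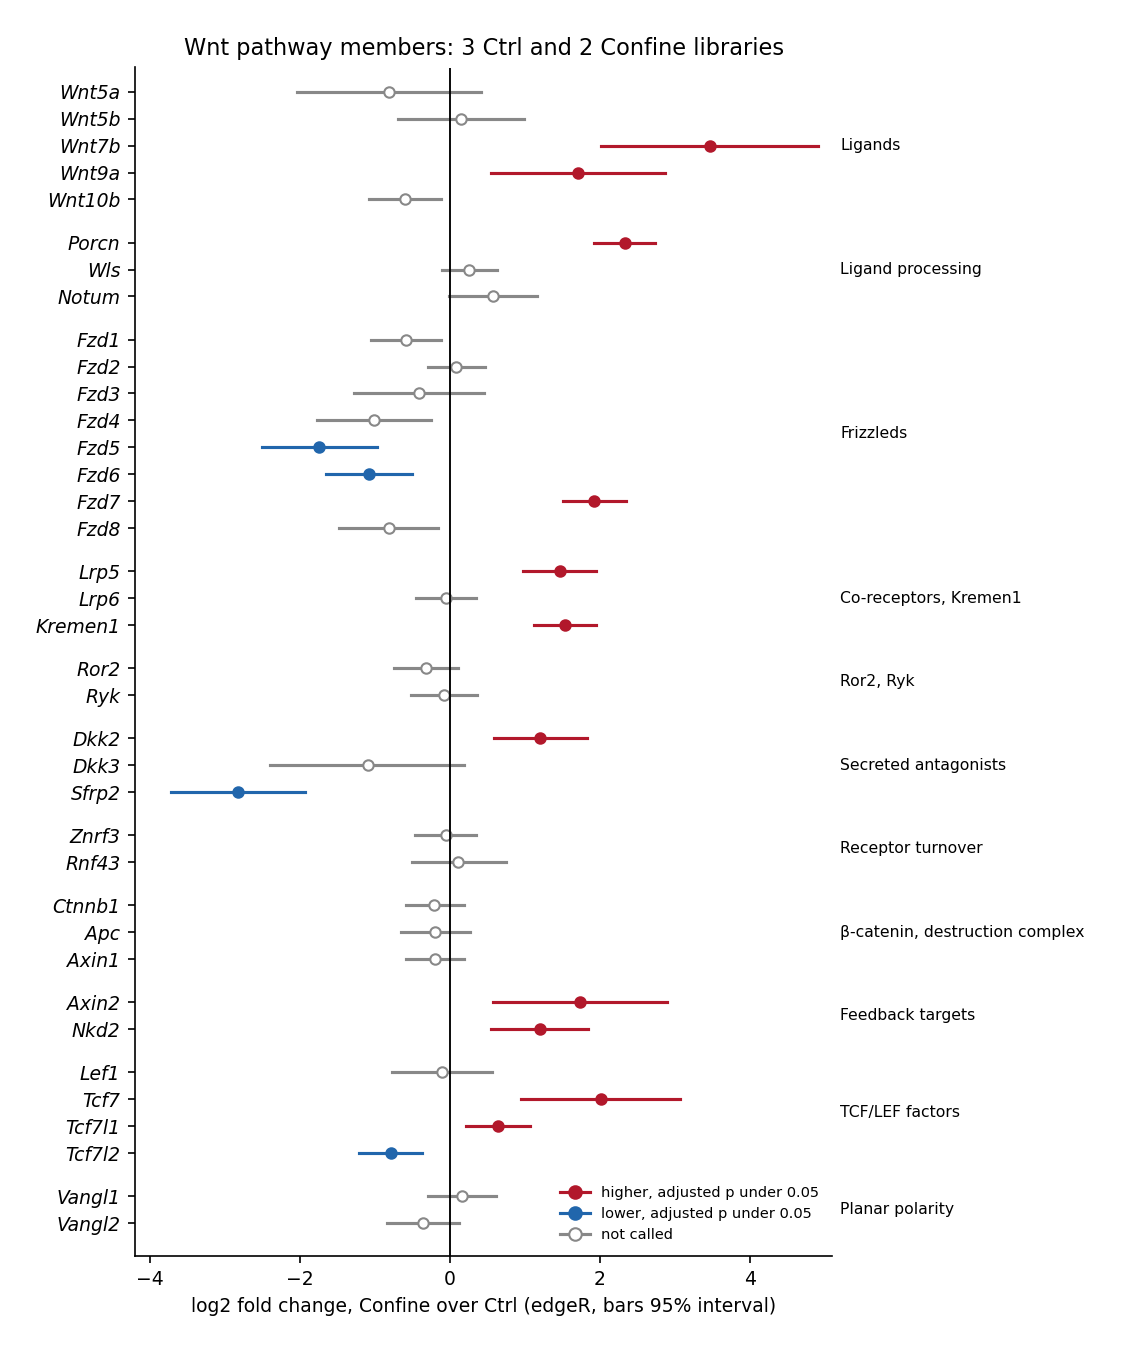
Log2 fold change of Confine over Ctrl for the 37 tested Wnt pathway members, grouped by role, with bars for the 95% interval from edgeR (3 Ctrl and 2 Confine libraries). Filled red points are the 11 members higher and filled blue points the 4 members lower at an adjusted p under 0.05, and Wnt7b, at 3.46, and Sfrp2, at -2.83, lie farthest from 0.

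In bulk RNA a lower level can come from fewer cells that use a gene or from less of its RNA per cell, and the 2 cannot be told apart. When counts were scaled by library size without TMM factors, the median over all tested genes moved to -0.21 on the log2 scale, and 17 members were called, 9 of them higher, where 26.8% of all tested genes were called and 9.09% were called higher. Of these 17, 13 were among the 15 called after TMM. Wnt7b, like Wnt9a, Axin2 and Tcf7, passed the filter on low counts through its Confine libraries alone. With no such filter Wnt7b was still called (edgeR adjusted p = 0.000113). Calls also depended on single libraries. Without Confine 1/2, 11 members were called and 2256 of all tested genes (13.5%), and without Confine 3 the numbers were 10 and 2054 (12.4%). Leaving out any 1 of the 5 libraries left the calls of 8 members in place, namely Wnt7b, Porcn, Fzd5, Fzd7, Lrp5, Kremen1, Dkk2 and Sfrp2.

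The upstream sequences of some called members are shown for the site that TCF/LEF proteins bind. RefSeq windows of 250 bases before an annotated start (GRCm38.p6) were matched by symbol for 27 of the 44 members. The letters CTTTG followed by AA, AT, TA or TT were searched on both strands, and since these motifs differ only in their last 2 letters, a position can match no more than 1 of them on a strand. At least 1 motif was present for 5 of these 27 members (18.5%) and for 2 of the 10 called members with a window (20.0%), compared with 4527 of 27025 genes (16.8%). The shares lie close together. Below are the windows of Fzd7, the receptor that rose most, of Sfrp2, the member that fell most, of Axin2, the classical β-catenin target, and of Tcf7l2, the most abundant TCF/LEF factor per kilobase in Ctrl, at a start that lies within the Tcf7l2 gene. Capitals mark a motif match, which Fzd7 has on the minus strand and Tcf7l2 on the plus strand. The window before the 5′ start of Tcf7l2 itself (chr19:55741560-55741809, plus strand), not printed, holds no match. The windows of Sfrp2 and Axin2 hold no match, which says nothing of TCF/LEF binding elsewhere at these genes. The windows lie at chr1:59481897-59482146 (Fzd7), chr3:83766071-83766320 (Sfrp2), chr11:108920099-108920348 (Axin2) and chr19:55895071-55895320 (Tcf7l2), all on the plus strand and all outside annotated exons.
Fzd7: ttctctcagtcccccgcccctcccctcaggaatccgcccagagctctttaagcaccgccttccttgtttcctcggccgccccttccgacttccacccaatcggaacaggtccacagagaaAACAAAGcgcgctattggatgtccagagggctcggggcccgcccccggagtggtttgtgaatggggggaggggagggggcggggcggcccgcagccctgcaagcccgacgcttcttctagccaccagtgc
Sfrp2: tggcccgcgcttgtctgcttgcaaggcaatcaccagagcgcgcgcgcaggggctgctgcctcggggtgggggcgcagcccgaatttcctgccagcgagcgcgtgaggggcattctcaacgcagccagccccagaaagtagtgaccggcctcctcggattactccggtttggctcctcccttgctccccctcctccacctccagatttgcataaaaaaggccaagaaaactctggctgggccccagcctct
Axin2: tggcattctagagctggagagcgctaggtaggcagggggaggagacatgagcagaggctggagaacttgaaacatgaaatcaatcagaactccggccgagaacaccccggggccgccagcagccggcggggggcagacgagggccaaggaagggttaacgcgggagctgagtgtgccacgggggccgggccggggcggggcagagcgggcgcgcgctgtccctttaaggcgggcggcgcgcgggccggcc
Tcf7l2: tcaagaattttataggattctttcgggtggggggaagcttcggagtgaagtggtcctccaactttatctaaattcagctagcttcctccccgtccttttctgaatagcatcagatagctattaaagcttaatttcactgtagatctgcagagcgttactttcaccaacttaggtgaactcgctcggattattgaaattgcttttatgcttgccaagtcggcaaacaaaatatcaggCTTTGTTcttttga

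Of the 8 ligand genes, Wnt7b and Wnt9a rose, 3 did not pass the test and 3 were too low to be tested. Wnt7b (chr15:85535437-85582473, minus strand), a ligand of the canonical branch in many tissues, had 3, 2 and 1 counts in Ctrl and 25 and 23 in Confine. Its summed counts per effective library size were 11.5 times as high in Confine (95% counting interval 4.92 to 33.0), and the groups did not overlap. Wnt7b rose with a log2 fold change of 3.46 (SE 0.69, edgeR adjusted p = 0.00111), from levels at or under the floor of 3 counts per library. Wnt9a (chr11:59306928-59333552, plus strand), known for its part in joint and blood stem cell development, had 7, 14 and 5 counts in Ctrl and 38 and 22 in Confine. Wnt9a rose with a log2 fold change of 1.70 (SE 0.56, edgeR adjusted p = 0.0331). This call was lost without Ctrl 1 (adjusted p = 0.103), Ctrl 3 (0.0883), Confine 1/2 (0.279) or Confine 3 (0.0828).

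The ligand with the highest level per kilobase of exon was Wnt10b, which acts in the canonical branch and restrains fat cell formation. Its normalized CPM was 15.0, 22.2 and 23.1 in Ctrl and 11.6 and 15.0 in Confine, so that Confine 3 met the lowest Ctrl library. The log2 fold change of Wnt10b was -0.60 (95% interval -1.08 to -0.12, edgeR adjusted p = 0.0680), just outside the threshold, and the gene passed under 6 of 14 alternatives, among them without Ctrl 1 (adjusted p = 0.0274). Wnt10b made up 86.9%, 88.8% and 91.1% of the summed CPM per kilobase of the 8 ligands in Ctrl and 74.7% and 81.3% in Confine. The ligand sum itself was 5.08, 7.36 and 7.44 CPM per kilobase in Ctrl and 4.55 and 5.43 in Confine, which overlap. Even in Confine, Wnt7b gave no more than 3.79% and Wnt9a no more than 8.48% of that sum.

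Wnt5a and Wnt5b are ligands of the branches without β-catenin. Wnt5a had 28, 23 and 10 counts in Ctrl and 17 and 7 in Confine, and its interval was wide (log2 fold change -0.81, 95% interval -2.04 to 0.41, edgeR adjusted p = 0.355). Wnt5b had 32 counts in every Ctrl library and 39 and 35 in Confine (log2 fold change 0.15, interval -0.69 to 0.98). In both genes the groups overlapped on the normalized scale. Wnt4 had 4, 9 and 2 counts in Ctrl and 2 and 1 in Confine, a ratio of 0.288 with a counting interval of 0.0535 to 1.02. Wnt6 had 0 counts in every library, and Wnt11 had 1 count in Confine 1/2 and none elsewhere.

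Of the 3 genes that process Wnt ligands, Porcn rose and the others did not pass the test. Porcn (chrX:8193848-8206525, minus strand), the membrane acyltransferase without which Wnts are not secreted, stood at 27.0, 23.7 and 33.8 normalized CPM in Ctrl. Confine 1/2 and Confine 3 held 134 and 148 CPM, far above every Ctrl library. Porcn rose with a log2 fold change of 2.33 (SE 0.19, edgeR adjusted p = 7.35e-08), the lowest adjusted p among the members. Wls, the carrier that takes lipidated Wnts to the cell surface, was at 110, 117 and 106 CPM in Ctrl and 136 and 128 in Confine. These groups did not overlap either, but the difference was small (log2 fold change 0.25, 95% interval -0.11 to 0.62, edgeR adjusted p = 0.329). Notum, a secreted enzyme that removes the lipid again, was at 5.42, 8.77 and 6.25 CPM in Ctrl and 6.96 and 13.3 in Confine. The Confine libraries thus differed from each other more than the Ctrl libraries did, and the log2 fold change of 0.57 (95% interval -0.02 to 1.16) had an edgeR adjusted p of 0.161. Notum passed under 2 of 14 alternatives, one of them without Confine 1/2 (adjusted p = 0.0488).

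**Figure D2:**
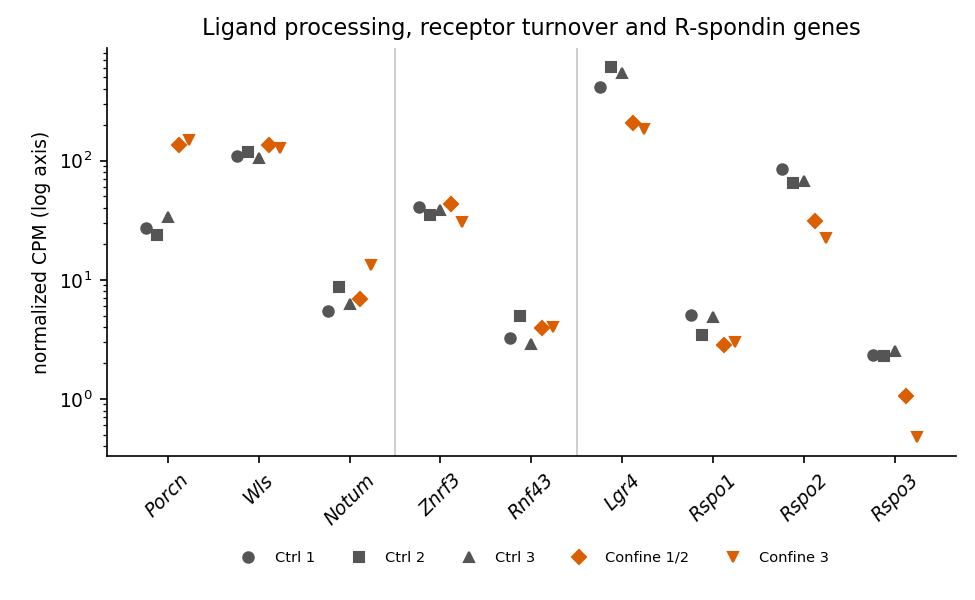
Normalized CPM on a log axis of genes for Wnt processing (Porcn, Wls, Notum), receptor turnover (Znrf3, Rnf43) and the R-spondin system (Lgr4, Rspo1, Rspo2, Rspo3), 1 point per library with Ctrl in grey and Confine in orange. Porcn and Wls separate upward, Lgr4, Rspo1, Rspo2 and Rspo3 separate downward, and Notum, Znrf3 and Rnf43 overlap. Of the genes that separate, Wls and Rspo1 did not pass the test. Groups also lay apart in 49.5% of all tested genes.

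All 8 Frizzled receptor genes listed were tested, of which Fzd7 rose, Fzd5 and Fzd6 fell and 5 did not pass the test. Fzd7 (chr1:59482424-59486955, plus strand), whose upstream window is printed above, is a receptor for canonical and other Wnts. It stood at 9.50, 13.1 and 9.61 normalized CPM in Ctrl and at 36.9 and 44.7 in Confine. Fzd7 rose with a log2 fold change of 1.92 (SE 0.20, edgeR adjusted p = 1.46e-06), with no overlap. Fzd5 (chr1:64730558-64737751, minus strand), another receptor of the canonical branch, stood at 3.66, 2.83 and 3.96 CPM in Ctrl and 0.811 and 1.27 in Confine. Fzd5 fell with a log2 fold change of -1.75 (SE 0.36, edgeR adjusted p = 0.00157). Fzd6 (chr15:39006034-39038188, plus strand), known for its role in planar polarity of skin and hair, went from 5.67, 7.63 and 6.12 CPM to 3.11 and 3.02, again without overlap. Fzd6 fell with a log2 fold change of -1.08 (SE 0.27, edgeR adjusted p = 0.00667), and this call was lost without Confine 1/2 (adjusted p = 0.0552) or Confine 3 (0.0647).

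Fzd1, Fzd4 and Fzd8 lay just outside the threshold, each with both Confine libraries below all Ctrl libraries. Fzd4, the receptor of the Norrin ligand in vessels, was at 3.11, 2.23 and 2.30 CPM in Ctrl and 1.18 and 1.35 in Confine (log2 fold change -1.01, 95% interval -1.77 to -0.25, edgeR adjusted p = 0.0520). Fzd1 was at 9.88, 12.2 and 10.7 CPM in Ctrl and 7.43 and 7.07 in Confine (log2 fold change -0.59, interval -1.06 to -0.12, edgeR adjusted p = 0.0648). Fzd8 was at 5.29, 6.88 and 4.47 CPM in Ctrl and 2.23 and 4.09 in Confine (log2 fold change -0.82, interval -1.48 to -0.16, edgeR adjusted p = 0.0689). Fzd4 passed the threshold under 7 of 14 alternatives, among them without Ctrl 2 (adjusted p = 0.0361), Fzd8 under 5, among them without Ctrl 3 (0.0335) or Confine 3 (0.0365), and Fzd1 under 3, among them DESeq2 (0.0494). Fzd2 showed no such shift, with 49.4, 60.5 and 50.2 CPM in Ctrl and 56.6 and 56.0 in Confine, inside the Ctrl range (log2 fold change 0.08, interval -0.30 to 0.46). Fzd3 was low, with 20 to 53 counts per library and overlapping groups (log2 fold change -0.42, interval -1.28 to 0.45).

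The make-up of the Frizzled family per length differed between the groups. The summed CPM per kilobase of the 8 Frizzled genes was 21.1, 25.9 and 21.4 in Ctrl and 26.8 and 28.6 in Confine. Fzd2 was the most abundant per kilobase in every library and made up 63.9%, 63.7% and 63.9% of this sum in Ctrl and 57.6% and 53.5% in Confine. The share of Fzd7 was 9.93%, 11.2% and 9.90% in Ctrl and 30.4% and 34.5% in Confine. In Ctrl, Fzd7 and Fzd1 (11.2% to 11.9%) had near-equal shares, whereas in Confine Fzd1 held 6.60% and 5.89%. Fzd6 went from between 5.57% and 6.11% to 2.41% and 2.19%. An exact permutation test of such a share over 3 and 2 libraries cannot give a two-sided p below 0.1, so shares are given as values.

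**Figure D3:**
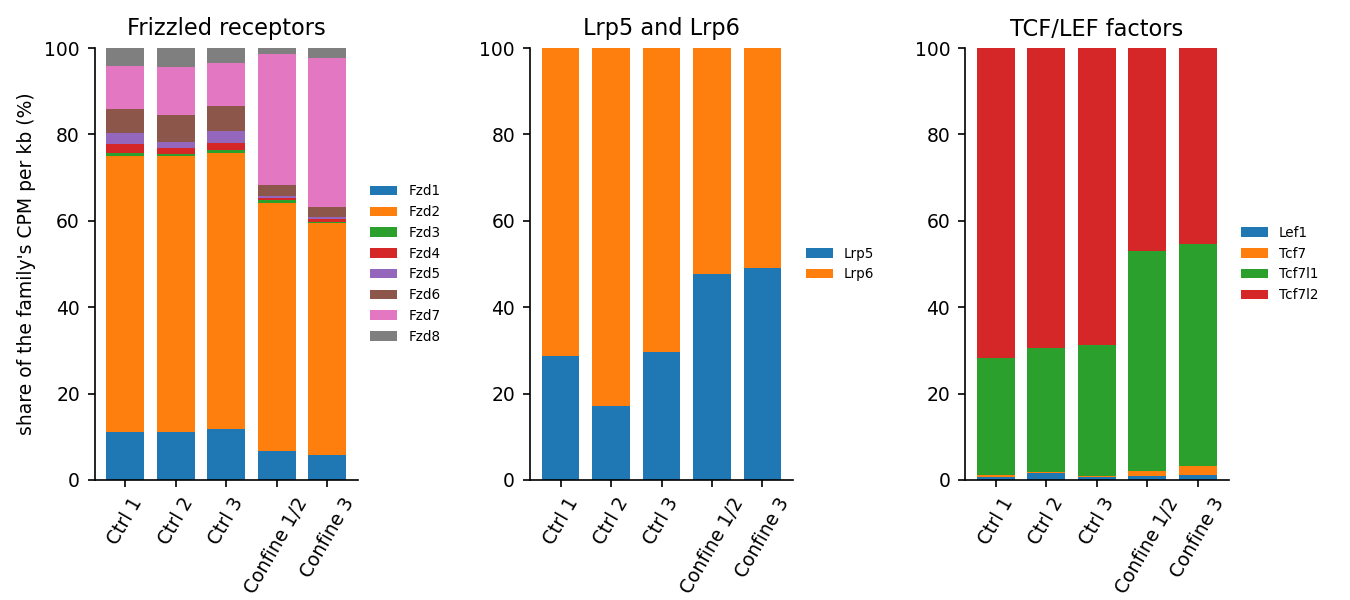
Share of each gene, in percent, of the summed normalized CPM per kilobase of exon of the 8 Frizzled genes, of Lrp5 and Lrp6, and of the 4 TCF/LEF genes, with 1 bar per library. In both Confine bars the shares of Fzd7 (30.4% and 34.5%), Lrp5 (47.7% and 49.1%) and Tcf7l1 (50.9% and 51.5%) exceed those of all 3 Ctrl bars.

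The co-receptors Lrp5 and Lrp6 are close relatives that receive the canonical signal with a Frizzled. Lrp5 (chr19:3584828-3686564, minus strand) stood at 7.91, 4.95 and 7.61 normalized CPM in Ctrl and 18.0 and 19.5 in Confine. Lrp5 rose with a log2 fold change of 1.46 (SE 0.23, edgeR adjusted p = 0.000118) and the groups lay apart. Lrp6 stood at 27.6, 33.8 and 25.3 CPM in Ctrl and 27.7 and 28.4 in Confine, inside the Ctrl range. Its log2 fold change was -0.05, with an interval of -0.45 to 0.35. Lrp5 thus made up 28.7%, 17.1% and 29.7% of the summed CPM per kilobase of both co-receptors in Ctrl and 47.7% and 49.1% in Confine. Kremen1 (chr11:5191552-5261558, minus strand), a receptor of Dickkopf antagonists that removes Lrp6 from the cell surface together with them, stood at 13.8, 16.2 and 15.5 CPM in Ctrl and 36.1 and 51.9 in Confine. Kremen1 rose with a log2 fold change of 1.53 (SE 0.20, edgeR adjusted p = 1.37e-05).

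Ror2 and Ryk, which are not Frizzleds and serve the branches without β-catenin, did not pass the test. Ror2, a tyrosine kinase receptor of Wnt5a, stood at 13.1, 14.6 and 13.5 CPM in Ctrl and 10.6 and 11.3 in Confine (log2 fold change -0.32, 95% interval -0.75 to 0.11, edgeR adjusted p = 0.291). The Confine values lay below all Ctrl values, and the interval includes 0. Ryk, a receptor with an inactive kinase domain, had overlapping groups and a log2 fold change of -0.08 (interval -0.52 to 0.36). Ror1 was represented by 1 count in Ctrl 1 and none elsewhere. The planar polarity genes Vangl1 (log2 fold change 0.16, interval -0.29 to 0.61) and Vangl2 (-0.36, interval -0.84 to 0.12) did not pass the test either.

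Of the 5 secreted antagonists, Sfrp2 fell, Dkk2 rose, Dkk3 did not pass the test and 2 were not tested. Sfrp2 (chr3:83766321-83774316, plus strand), which binds Wnts outside the cell, had 138, 65 and 118 counts in Ctrl and 14 and 17 in Confine. On the normalized scale this was 4.77, 2.46 and 5.02 CPM in Ctrl and 0.473 and 0.675 in Confine, well below every Ctrl library. Sfrp2 fell with a log2 fold change of -2.83 (SE 0.42, edgeR adjusted p = 6.69e-05). The antisense gene Gm26771 shares 347 exon bases with Sfrp2 on the opposite strand and was more abundant, with a mean of 1071 counts against 70.4 over the 5 libraries. Gm26771 stood at 48.5, 52.0 and 56.3 CPM in Ctrl and 24.5 and 20.8 in Confine (log2 fold change -1.21, SE 0.19, edgeR adjusted p = 0.000121). Whether counting used the strand is not given in the sources used here, so reads of the shared stretch cannot be told apart. Gm26771 fell less than Sfrp2 on the log2 scale, and this difference between the genes was not tested.

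Dkk2 (chr3:132085292-132180304, plus strand), a Dickkopf protein that binds Lrp5, Lrp6 and Kremen proteins, stood at 2.11, 1.63 and 2.04 CPM in Ctrl and 4.43 and 4.45 in Confine. The groups lay apart, and Dkk2 rose with a log2 fold change of 1.20 (SE 0.30, edgeR adjusted p = 0.00595). Dkk3, a divergent member of the family, had 18, 23 and 14 counts in Ctrl and 14 and 4 in Confine (log2 fold change -1.10, 95% interval -2.40 to 0.19, edgeR adjusted p = 0.222). Sfrp1, often made by fibroblasts, had 0 counts in every library. Wif1 had 1 count in Ctrl 3, 1 in Confine 1/2 and none elsewhere. A floor of 3 counts per library corresponds to between 0.101 and 0.128 CPM.

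Znrf3 and Rnf43, ubiquitin ligases that clear Frizzled receptors from the cell surface and are themselves Wnt targets, did not pass the test. Znrf3 stood at 35.0 to 41.0 CPM in Ctrl and its groups overlapped (log2 fold change -0.06, 95% interval -0.47 to 0.35). Rnf43 was low, with 68 to 131 counts per library (log2 fold change 0.11, interval -0.51 to 0.74). The intracellular core was likewise not called. Ctnnb1, the gene of β-catenin, stood at 125, 139 and 110 CPM in Ctrl and 110 and 106 in Confine (log2 fold change -0.21, interval -0.59 to 0.18, edgeR adjusted p = 0.462). Apc (log2 fold change -0.20, interval -0.66 to 0.26) and Axin1 (-0.20, interval -0.59 to 0.19), scaffolds of the destruction complex, had overlapping groups too. For these 5 genes the intervals leave room for no more than a 2-fold change in either direction.

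The feedback genes Axin2 and Nkd2 rose, from low levels. Axin2 (chr11:108920349-108950783, plus strand), the relative of Axin1 that canonical signalling induces, had 6, 7 and 15 counts in Ctrl and 32 and 34 in Confine. Both Confine libraries exceeded every Ctrl library, with Ctrl 3 the closest at 0.638 CPM against 1.08 in Confine 1/2. Axin2 rose with a log2 fold change of 1.73 (SE 0.55, edgeR adjusted p = 0.0292). This call was lost without Ctrl 1 (adjusted p = 0.107), Ctrl 2 (0.0618), Confine 1/2 (0.0999) or Confine 3 (0.207), and without Ctrl 3 the log2 fold change was 2.33. Nkd2 (chr13:73818534-73847631, minus strand), which binds Dishevelled and dampens the signal, stood at 2.25, 3.36 and 1.70 CPM in Ctrl and 6.15 and 5.04 in Confine. Nkd2 rose with a log2 fold change of 1.20 (SE 0.31, edgeR adjusted p = 0.00815), and without Confine 1/2 the adjusted p was 0.101. Its relative Nkd1 was at 2 counts or fewer in every library.

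The 4 TCF/LEF factors, which carry the β-catenin signal to DNA and repress targets in its absence, did not change together: Tcf7 and Tcf7l1 rose, Tcf7l2 fell and Lef1 did not pass the test. Tcf7 (chr11:52252371-52283014, minus strand), usually an activator with β-catenin, had 17, 8 and 6 counts in Ctrl and 37 and 48 in Confine. Tcf7 rose with a log2 fold change of 2.01 (SE 0.51, edgeR adjusted p = 0.00689), and without Confine 3 the adjusted p was 0.128. Tcf7l1 (chr6:72626378-72789254, minus strand), known mainly as a repressor, stood at 44.3, 38.3 and 60.1 CPM in Ctrl and 79.6 and 68.7 in Confine. Tcf7l1 rose with a log2 fold change of 0.64 (SE 0.20, edgeR adjusted p = 0.0286). This call was lost without Ctrl 1 (adjusted p = 0.0978), Confine 1/2 (0.237) or Confine 3 (0.0931). It was also lost without TMM factors (log2 fold change 0.43, adjusted p = 0.120).

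Tcf7l2 (chr19:55741820-55933654, plus strand), which can activate or repress, had the highest level per kilobase of all 44 members in Ctrl. It stood at 264, 208 and 304 CPM in Ctrl and 164 and 135 in Confine, below every Ctrl library. Tcf7l2 fell with a log2 fold change of -0.79 (SE 0.20, edgeR adjusted p = 0.00717), and without Confine 3 the adjusted p was 0.132. Lef1 stood at 2.45, 4.72 and 3.19 CPM in Ctrl and 3.21 and 3.18 in Confine, within the Ctrl range (log2 fold change -0.11, 95% interval -0.78 to 0.56). Per kilobase, Tcf7l2 made up 71.8%, 69.5% and 68.7% of the 4 factors in Ctrl and 47.0% and 45.3% in Confine. Tcf7l1 made up 27.0%, 28.6% and 30.4% in Ctrl and 50.9% and 51.5% in Confine, so the order of the pair reversed in both Confine libraries. The sum of the 4 factors was 41.9, 34.1 and 50.5 CPM per kilobase in Ctrl and 39.9 and 34.0 in Confine, which overlap.

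**Figure D4:**
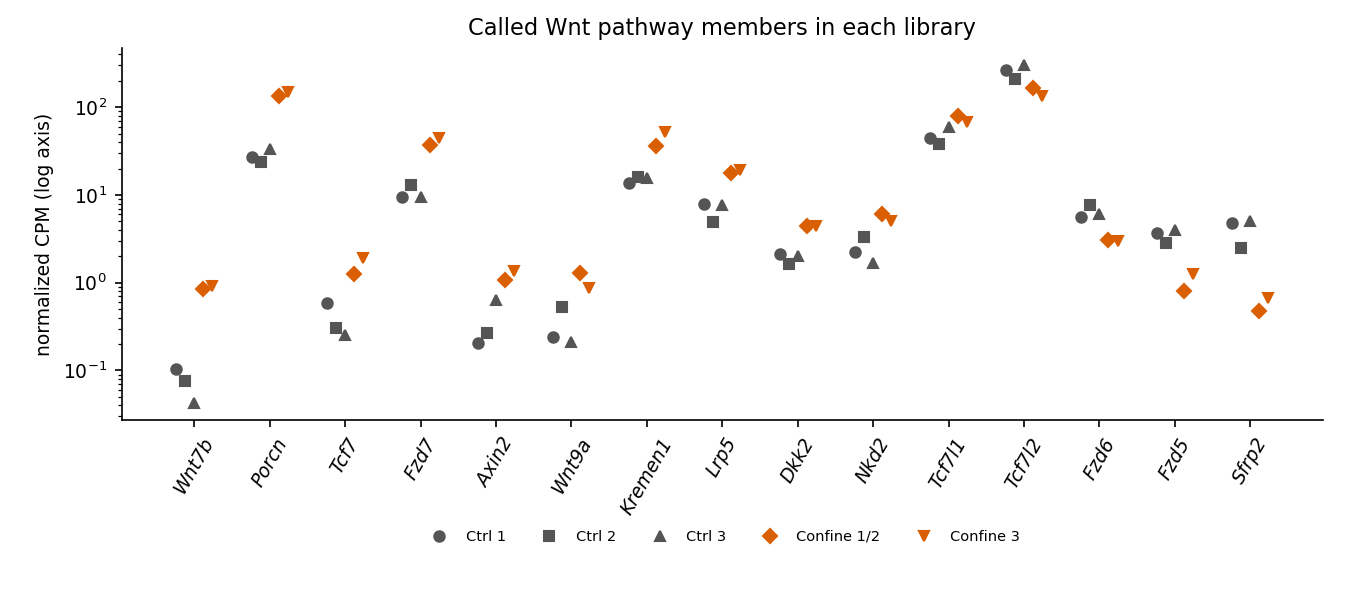
Normalized CPM on a log axis of the 15 called Wnt pathway members, 1 point per library with Ctrl in grey and Confine in orange. For all 15 members, which were picked as called, both Confine points lie on one side of the 3 Ctrl points. The same holds for 49.5% of all tested genes. Levels run from under 1 CPM (Wnt7b in Ctrl) to over 200 CPM (Tcf7l2 in Ctrl).

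A further 71 Wnt pathway genes outside the 44 members were read from the same fit. Of these, 44 were tested and 10 (22.7%) were called by edgeR, close to the 23.0% of all tested genes, 1 of them higher in Confine and 9 lower. Among 14 cytoplasmic genes of the pathway edgeR called 0, with 2 at an unadjusted p under 0.05, and DESeq2 and limma-voom also called 0. The result for these genes is not given for the settings that called more of the further list. Over all tested genes of this further list, 6 were called without Confine 1/2 and 16 without Ctrl 2. Called with an absolute log2 fold change above 1 were the receptor Lgr4, the agonists Rspo2 and Rspo3, the ligand Wnt16, the corepressor Tle2 and Ccn5, a secreted protein first found as Wnt-induced, all lower in Confine. R-spondins bind Lgr receptors and draw Znrf3 and Rnf43 away from Frizzleds. Lgr4 stood at 410, 614 and 546 CPM in Ctrl and 206 and 184 in Confine (log2 fold change -1.42, SE 0.21, edgeR adjusted p = 4.75e-05). Rspo2 stood at 84.1, 64.9 and 66.8 CPM in Ctrl and 31.0 and 22.4 in Confine (log2 fold change -1.43, SE 0.21, edgeR adjusted p = 5.78e-05). In both genes the Confine libraries lay below all Ctrl libraries.

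Rspo3 had 68, 61 and 59 counts in Ctrl and 31 and 12 in Confine (log2 fold change -1.62, SE 0.42, edgeR adjusted p = 0.00768), and without Confine 3 its adjusted p was 0.115. Rspo1 did not pass the test (log2 fold change -0.61, 95% interval -1.22 to 0.00, adjusted p = 0.149), although its groups did not overlap. Wnt16 had 25, 27 and 42 counts in Ctrl and 5 and 6 in Confine (log2 fold change -2.56, SE 0.60, edgeR adjusted p = 0.00423), and without Confine 1/2 its adjusted p was 0.0624. Wnt16 passed the filter on low counts through its Ctrl libraries alone and has no value with at least 10 counts in every library. Tle2, which is recruited by TCF factors, stood at 19.9, 25.6 and 24.2 CPM in Ctrl and 9.66 and 10.5 in Confine (log2 fold change -1.20, SE 0.21, edgeR adjusted p = 0.000281). Ccn5 stood at 1208, 949 and 998 CPM in Ctrl and 420 and 419 in Confine (log2 fold change -1.33, SE 0.19, edgeR adjusted p = 4.07e-05). None of these genes, all picked as called except Rspo1, had overlapping groups, as was so for 49.5% of all tested genes. Lgr4, Rspo2 and Rspo3 thus fell in Confine, while the members Znrf3 and Rnf43 did not pass the test. The products of the former act on the Znrf3 and Rnf43 proteins, which RNA levels do not measure.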

How the data were processed

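RNA-seq of MEF cells was analysed for 3 Ctrl and 3 Confine samples. Per the labels, mRNA was purified with polyT and libraries were made with dUTP in the second strand. The authors deposited raw counts per gene, with no normalization, in 6 columns, and 0 columns were left unused. The submitters' processing notes name Trim Galore 0.6.10, HISAT2 2.1.0, SAMtools 1.5, featureCounts and the mm10 build. Settings, annotation and use of the strand are not given in the sources used here, and they can move counts between overlapping genes. Gene IDs were matched to GENCODE M21 (GRCm38), 54587 of 55335 with their version and 55154 without it. The 2 identical Confine columns entered once.

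Genes were kept by edgeR's filterByExpr, scaled with TMM factors and compared by quasi-likelihood tests (edgeR 4.0.16, R 4.3.3), with Benjamini-Hochberg adjustment over 15881 genes. This fit had 3 residual and 14.8 prior degrees of freedom. Calls required an adjusted p under 0.05, and they were counted again with an absolute log2 fold change above 1.5. Levels are TMM-scaled CPM, divided by exon length in kilobases where genes are compared. The 3 Ctrl libraries summed to 27853805, 24450853 and 22287210 counts, Confine 1/2 to 32537550 and Confine 3 to 27290138. Counting intervals and the floor of 3 counts cover counting error only.

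The 44 members and the lists of other pathway genes and markers were chosen with earlier results of these data known. All members are accounted for. Other pathway genes are named where called with an absolute log2 fold change above 1. Rspo1, named beside its relatives, and Daam2, Scrib, Ccnd1 and Cd44, named beside members of like role, were chosen after their values were seen. Promoter windows are from RefSeq (GRCm38.p6). The alternatives were DESeq2 1.42.0, limma-voom (limma 3.58.1), other size factors, other filters, the identical columns taken separately, a replicate block and leaving out each library.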

Additional observations from a re-analysis of the deposited data

How the results depend on the processing

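After TMM and edgeR, 15 of 37 tested members were called (40.5%), beside 23.0% of all tested genes. For the alternatives, the member share is given first and the share of all tested genes second. DESeq2 called 15 of 37 (40.5%, 23.4%) and limma-voom 15 of 37 (40.5%, 22.9%). RLE size factors gave 16 of 37 (43.2%, 22.9%) and library size alone 17 of 37 (45.9%, 26.8%). Without a filter 18 of 42 were called (42.9%, 14.5%). With at least 10 counts in every library 12 of 31 were called (38.7%, 23.7%). The identical Confine columns as separate samples gave 19 of 37 (51.4%, 33.4%). Leaving out 1 library gave 10 to 15 members, 6 to 16 other Wnt pathway genes and 2054 to 4426 of all tested genes. In these fits 7 of the 15 called members lost their call at least once, and no called member changed sign under any alternative that gave it a value, 14 for 11 of them and 13 for Wnt7b, Wnt9a, Axin2 and Tcf7, which have no value with at least 10 counts in every library. The replicate numbers were not shown to pair the samples, since only 2 pairs could be formed and their deviations correlated at -0.06 with the repeated library as number 2 and 0.06 as number 1, over 15881 genes. With a replicate block and that library as number 2, 13 members, 7 other Wnt pathway genes and 15.9% of all tested genes were called, and as number 1 the block gave 18, 19 and 31.1%. Each of these fits left 1 residual degree of freedom.

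The following members, none of them called, changed sign. Scaled by library size without TMM, Wnt5b had a log2 fold change of -0.063, Fzd2 of -0.13, Rnf43 of -0.10 and Vangl1 of -0.051. With the identical columns separate it was 0.010 for Znrf3. With the replicate block and the repeated library as number 1 it was 0.083 for Lrp6, 0.11 for Ryk, 0.031 for Apc and 0.19 for Lef1. Leaving out 1 library gave -0.15 to 0.078 for Lrp6, -0.26 to 0.11 for Ryk, -0.38 to 0.023 for Apc, -0.32 to 0.18 for Lef1, -0.05 to 0.38 for Rnf43, -0.22 to 0.45 for Vangl1, -1.12 to 0.04 for Fzd3 and -0.33 to 0.17 for Znrf3. The cause was not tested. Wnt9a was also not called with DESeq2 (adjusted p = 0.0606), with library size alone (0.0567) or with the replicate block and the repeated library as number 2 (0.144), which also ended the calls of Axin2 (0.146) and Tcf7l1 (0.106). Depth limits the 8 tested members with under 50 counts on average, 4 of which were called.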
